A study of Mus musculus with 2 samples.

Results

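Gas5 and the Snhg (small nucleolar RNA host gene) transcripts are noncoding RNAs whose introns carry small nucleolar RNAs (snoRNAs). The authors' table of Ensembl noncoding RNAs was searched for every row whose transcript identifier belongs to Gas5 or to a gene with a symbol that starts with Snhg. This gave 34 rows of 13 genes, among 1596 rows of 1466 genes in the table. The annotation (GENCODE M21 on GRCm38) holds 16 such genes, and Snhg11, Snhg14 and Snhg20 had no row. The rows belong to 4 classes, with 15 retained-intron transcripts, 13 lincRNAs, 4 processed transcripts and 2 antisense RNAs.

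The data came from small RNA sequencing of primary fibroblasts grown from ear clippings of C57BL/6 mice (C57BL/6-J in the study's methods) aged about 3 weeks. The cells of both libraries were first kept in KN-93 (10 µM, 48 h), which inhibits CaMK-II and was used for G1 arrest, and were then transfected for 24 h. AF25-low cells received GM-AF25, a gapmer against the C/D box snoRNA AF357425, at 500 nM. AF25-high cells received 3GA-AF25, a third-generation antisense oligonucleotide against the same snoRNA that raises its level, at 200 nM. Each condition has 1 library, so that no difference below has a replicate check and none was tested. Since the oligonucleotides also differ in chemistry and in dose, these and the level of AF357425 cannot be told apart. Cells given a control oligonucleotide were not analysed here.

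A snoRNA guides the chemical modification of other RNAs, most of all ribosomal RNA. C/D box snoRNAs direct 2′-O-methylation and carry a C box near the 5′ end and a D box near the 3′ end, whereas H/ACA box snoRNAs direct pseudouridylation. In vertebrates most of them are cut out of introns. In the Gas5 and Snhg genes the spliced exons code for no known protein, the snoRNAs are the conserved products, and the spliced RNA of several hosts is short-lived. Gas5 (growth arrest-specific 5) was first found as an RNA that accumulates in growth-arrested mouse fibroblasts, and the human counterpart of Snhg1 was first described as the host of U22.

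Small RNA sequencing reads short RNA, so a row named after a host can count reads of the snoRNAs that its annotated exons enclose. A retained-intron transcript keeps an intron as part of its exon, and a snoRNA in that intron then lies within the exon. The annotation places 37 small RNA genes within the 13 genes on the same strand (35 snoRNA genes, 1 scaRNA gene and 1 microRNA gene). Snhg7os holds none of them, and all 13 genes are called hosts here by their symbols alone. Of these, 28 lie inside an exon of at least 1 of the 34 transcripts. The snoRNAs that set the main rows apart are given below as in the GENCODE M21 transcripts, 5′ to 3′ in DNA letters, with the first TGATGA (C box) within the first 26 bases and the last CTGA (D box) within the last 20 bases in capitals.

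The first 4 lie in Gas5 on the plus strand of chromosome 1. Mir5117, which the annotation classes as a snoRNA, is at chr1:161037356-161037439 and Gm25789 at chr1:161038308-161038383, and both lie in the exons of Gas5-216. Snord80 (chr1:161037601-161037681, the longer of 2 overlapping gene models) lies in Gas5-223, and Snord47 (chr1:161038082-161038158) lies in Gas5-202. All 4 carry both boxes.
Mir5117: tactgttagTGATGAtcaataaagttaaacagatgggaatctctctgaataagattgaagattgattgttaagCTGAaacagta
Gm25789: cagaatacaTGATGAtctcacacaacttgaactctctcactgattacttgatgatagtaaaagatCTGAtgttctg
Snord80: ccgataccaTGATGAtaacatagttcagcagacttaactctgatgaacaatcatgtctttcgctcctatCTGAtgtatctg
Snord47: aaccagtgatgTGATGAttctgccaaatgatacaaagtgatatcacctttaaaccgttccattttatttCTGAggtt

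The next 3 lie in Snhg1 on the plus strand of chromosome 19 and separate its 2 main transcripts. Gm22680 (chr19:8725341-8725409) is inside an exon of Snhg1-203 but not of Snhg1-215. Gm23246 (chr19:8725594-8725660) and Gm25894 (chr19:8724251-8724325) are inside exons of Snhg1-215 but not of Snhg1-203. Gm25894 has no match to TGATGA in its first 26 bases, so its line is printed without capitals.
Gm22680: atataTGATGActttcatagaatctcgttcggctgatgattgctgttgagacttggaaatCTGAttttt
Gm23246: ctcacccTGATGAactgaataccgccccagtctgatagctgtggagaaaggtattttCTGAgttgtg
Gm25894: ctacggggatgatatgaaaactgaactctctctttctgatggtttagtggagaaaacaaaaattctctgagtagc

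The last pair lies in Snhg5 on the minus strand of chromosome 9 and shows how alike 2 snoRNAs of a host can be. Snord50a (chr9:88521529-88521600) and Snord50b (chr9:88521797-88521868) are both 72 nt long and differ by the substitution C50A, with positions counted from 1 at the 5′ end and Snord50a as the reference. Here the capital marks that base.
Snord50a: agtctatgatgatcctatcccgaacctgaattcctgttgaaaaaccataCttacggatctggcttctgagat
Snord50b: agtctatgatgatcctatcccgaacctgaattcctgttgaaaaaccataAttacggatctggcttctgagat

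Both boxes were found in these windows in 19 of 22 host snoRNAs of 60 to 100 nt (86.4%). Among all 454 annotated snoRNA transcripts of that length, 295 (65.0%) held both, on the strand of the gene. A match describes the letters only.

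The Ensembl table held 375931 reads in AF25-high and 533803 reads in AF25-low, which is 1.30% and 1.83% of the estimated library totals. Levels are given in RPM, the usual scaling of reads by the total of the library. Each ratio divides the RPM of AF25-high by the RPM of AF25-low and comes with an exact Clopper-Pearson 95% interval. These intervals are for counting error only and treat each read as an independent molecule. Reads are not independent molecules, so the intervals can be too narrow even for that error. They say nothing of the spread between cultures. Of 8 microRNA genes chosen as fibroblast markers, 4 had a row, with 3828 and 4470 reads. Of 5 epithelial ones 1 had a row (6 and 0 reads), and the endothelial, blood, muscle and neuronal ones had none, although the reads assigned to miRBase, the main source of microRNA counts, were not analysed here. AF357425, the targeted snoRNA, has no row of its own. The row whose exons enclose it, Rian-209, also encloses Gm23474 and had 37 and 14 reads, a ratio of 2.67 (1.41 to 5.34), in the direction of the labels.

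Gas5 and Snhg1 made up nearly all the reads of the hosts. The 34 rows summed to 59989 reads in AF25-high and 51091 reads in AF25-low, or 2079 and 1755 RPM, a ratio of 1.18 (1.17 to 1.20). Gas5 and Snhg1 held 96.3% of these in AF25-high and 95.8% in AF25-low. The other 11 genes together had 2231 and 2171 reads, a ratio of 1.04 (0.977 to 1.10). The hosts were 16.0% of all reads in the Ensembl table in AF25-high and 9.57% in AF25-low, while the rest of the table had 315942 and 482712 reads, a ratio of 0.660. The higher share in AF25-high thus goes with a lower total of the other rows.

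Gas5, at chr1:161034422-161038539, had 30636 reads in AF25-high and 22903 reads in AF25-low. This was 1062 against 787 RPM, a ratio of 1.35 (1.33 to 1.37). Snhg1, at chr19:8723475-8726443, had 27122 and 26017 reads, or 940 and 894 RPM, a ratio of 1.05 (1.03 to 1.07). Gas5 was therefore the gene that carried the difference in the sum, and without it the ratio of the remaining hosts was 1.05. Levels per kilobase used the exons of the transcripts with a row, retained introns among them. They were 304 RPM (AF25-high) and 225 RPM (AF25-low) for Gas5, and 318 and 302 RPM for Snhg1.

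The balance between Gas5 and Snhg1 does not depend on how the libraries are scaled. Of the reads of these 2 genes, Gas5 had 53.0% (95% interval 52.6 to 53.4) in AF25-high and 46.8% (46.4 to 47.3) in AF25-low. The direction of Snhg1 itself does depend on it, with ratios of 0.912 by the deposited size factors, 0.980 by the summed total of the 3 deposited files and 1.48 by the total of the Ensembl table. The ratio of Gas5 stayed above 1 under these scalings, at 1.17, 1.26 and 1.90 in the same order.

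**Figure D1:**
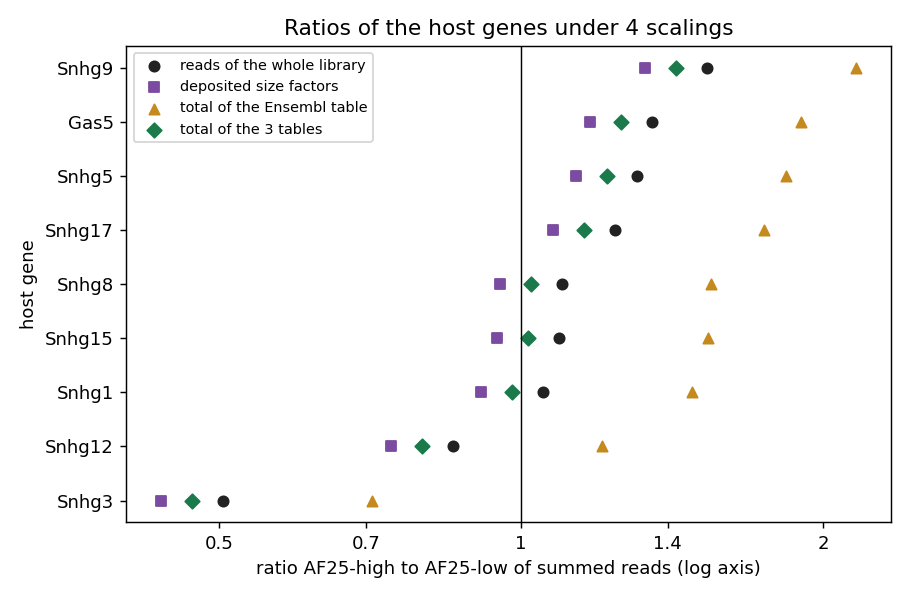
The ratio of summed reads in AF25-high to AF25-low (horizontal log axis) is drawn for the 9 host genes with a transcript of at least 20 reads, under 4 ways of scaling the libraries (1 marker shape each). Gas5 lies to the right of 1 under each of them (1.17 to 1.90), Snhg1 lies on both sides (0.912 to 1.48), and Snhg12 passes 1 with the Ensembl total alone (1.20).

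Snhg12 and Snhg5 followed at lower levels and differed in direction. Snhg12 (chr4:132308623-132311024) hosts snoRNAs of both box classes and had 988 reads in AF25-high and 1165 reads in AF25-low, a ratio of 0.855 (0.785 to 0.932). With the total of the Ensembl table as the scale its ratio was 1.20. Snhg5 (chr9:88521050-88522929), the host of the Snord50 pair, had 838 and 647 reads, a ratio of 1.31 (1.18 to 1.45). It stayed above 1 under each scaling, from 1.13 to 1.84. Per kilobase of exon in the transcripts with a row, the level was 23.1 and 27.0 RPM for Snhg12 and 17.2 and 13.2 RPM for Snhg5.

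The remaining 9 hosts had under 200 reads in each library. Snhg8, which encloses the H/ACA snoRNA Snora24, had 173 and 159 reads, a ratio of 1.10 (0.880 to 1.37). Snhg17 had 75 and 61 reads (1.24, 0.873 to 1.77) and Snhg15, the host of Snora9, had 66 and 61 reads (1.09, 0.759 to 1.57). Snhg9, the host of Snora78, had 41 and 27 reads (1.53, 0.920 to 2.59). For these 4 genes the counting interval held 1 by library totals. With the total of the Ensembl table as the scale it lay above 1 for all 4, beside 29.0% of all genes. The ratios were then 1.54 (1.24 to 1.93) for Snhg8, 1.75 (1.23 to 2.49) for Snhg17, 1.54 (1.07 to 2.21) for Snhg15 and 2.16 (1.29 to 3.64) for Snhg9.

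Snhg3, the host of the U17 snoRNAs Snora73a and Snora73b that take part in 18S rRNA processing, had 16 reads in AF25-high and 32 reads in AF25-low, a ratio of 0.504 (0.258 to 0.946). Snhg7os, an antisense RNA with no small RNA gene within it, had 12 and 2 reads, a ratio of 6.05 (1.35 to 55.7). Reads were counted on the sense strand, so reads of the gene opposite would not enter this row. Snhg6 had 12 and 8 reads, Snhg18 had 7 and 3 reads, and Snhg10 had 3 and 6 reads, with intervals that held 1. In all, the interval lay above 1 for 4 genes (Gas5, Snhg1, Snhg5 and Snhg7os), below 1 for 2 (Snhg12 and Snhg3), and held 1 for 7. Among all 1466 genes of the table, 15.1% had an interval above 1 and 10.4% had one below 1. With the total of the Ensembl table as the scale, 9 hosts had an interval above 1, beside 29.0% of all genes above and 3.96% below, and the interval of Snhg3 held 1 (0.710, 0.364 to 1.33).

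The gene sums hide transcripts that went in different directions. A minimum of 20 reads in the library with more reads left 17 of the 34 rows, from 9 genes, and 13 of the 17 rows under it had fewer than 10 reads in both libraries. Of the 17, 11 were higher and 6 were lower in AF25-high, and the median log2 ratio (0.5 read added) was 0.12. By the deposited size factors 7 were higher and 10 lower, and with the 3 tables summed for the total 9 were higher and 8 lower. Among all 436 rows of the table with this minimum, 229 were higher and 207 lower, and the median was 0.057. The members were at least 2-fold apart in 3 of 17 rows, against a background of 28.0% of all rows. All 3 (Gas5-202, Snhg12-201 and Snhg3-202) were lower in AF25-high, where the background was 12.2% lower and 15.8% higher. The counting interval lay above 1 for 5 members and below 1 for 5, and the table as a whole had 29.1% above and 26.6% below.

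**Figure D2:**
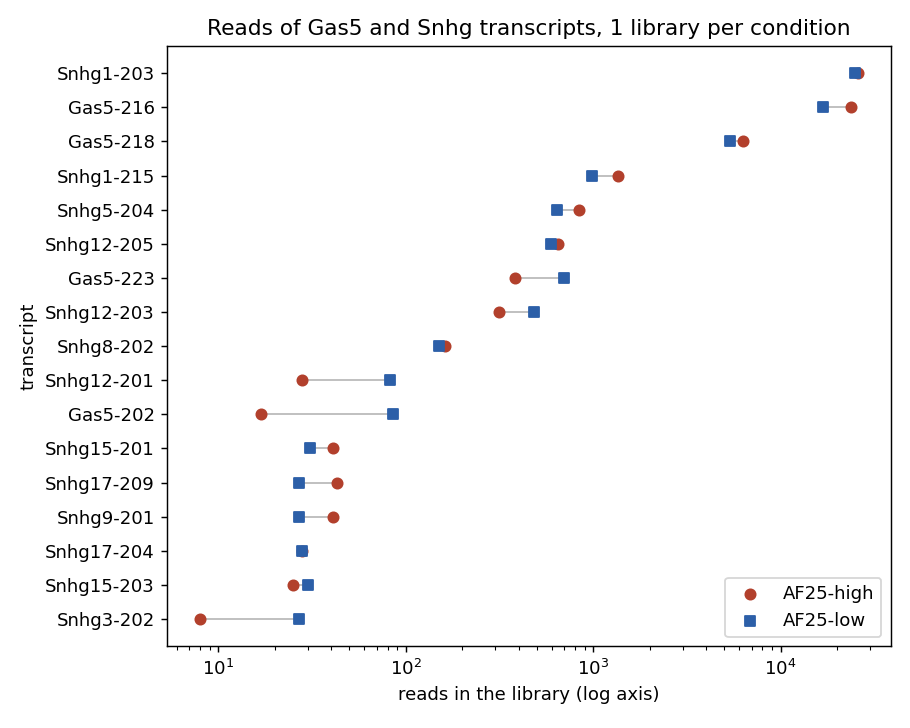
Reads in the AF25-high library (circles) and the AF25-low library (squares) are drawn on a log axis for the 17 Gas5 and Snhg transcripts with at least 20 reads in either library, 1 library per condition and so without error bars. Snhg1-203 and Gas5-216 stand at the top with at least 16753 reads in each library, and the widest gap is that of Gas5-202 (17 against 86 reads).

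Gas5 was spread over 4 transcripts with at least 20 reads, with ratios from 0.199 to 1.44 by library totals. Gas5-216, a retained-intron transcript of 549 nt that encloses Mir5117 and Gm25789, had 23888 reads in AF25-high and 16753 reads in AF25-low. This was 828 against 576 RPM, a ratio of 1.44 (1.41 to 1.47), and it was the row with the 4th most reads in the table in AF25-high and the 9th most in AF25-low. Gas5-218, of 2556 nt, encloses Mir5117 too, along with Gm26224, Gm22489, Gm22357, Gm23212 and Snord78. It had 6326 and 5356 reads, or 219 and 184 RPM, a ratio of 1.19 (1.15 to 1.24). Both large transcripts of Gas5 were thus higher in AF25-high by library totals. By the deposited size factors the interval of Gas5-218 held 1 (1.03, 0.996 to 1.07).

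The 2 smaller ones were lower in AF25-high. Gas5-223, whose exons enclose Snord80, had 385 reads in AF25-high and 697 reads in AF25-low, a ratio of 0.557 (0.491 to 0.632). Gas5-202, whose exons enclose Snord47, had 17 and 86 reads, a ratio of 0.199 (0.111 to 0.338). These 2 transcripts share no enclosed snoRNA with Gas5-216 or with each other. Within the gene, Gas5-216 took 78.0% (AF25-high) and 73.1% (AF25-low) of all reads, whereas Gas5-223 took 1.26% and 3.04%, and Gas5-202 took 0.0555% and 0.375%. These shares do not depend on the scaling. The spliced lincRNA of Gas5 in the table, Gas5-217, which encloses none of the snoRNAs, had 1 read in AF25-high and 3 reads in AF25-low.

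**Figure D3:**
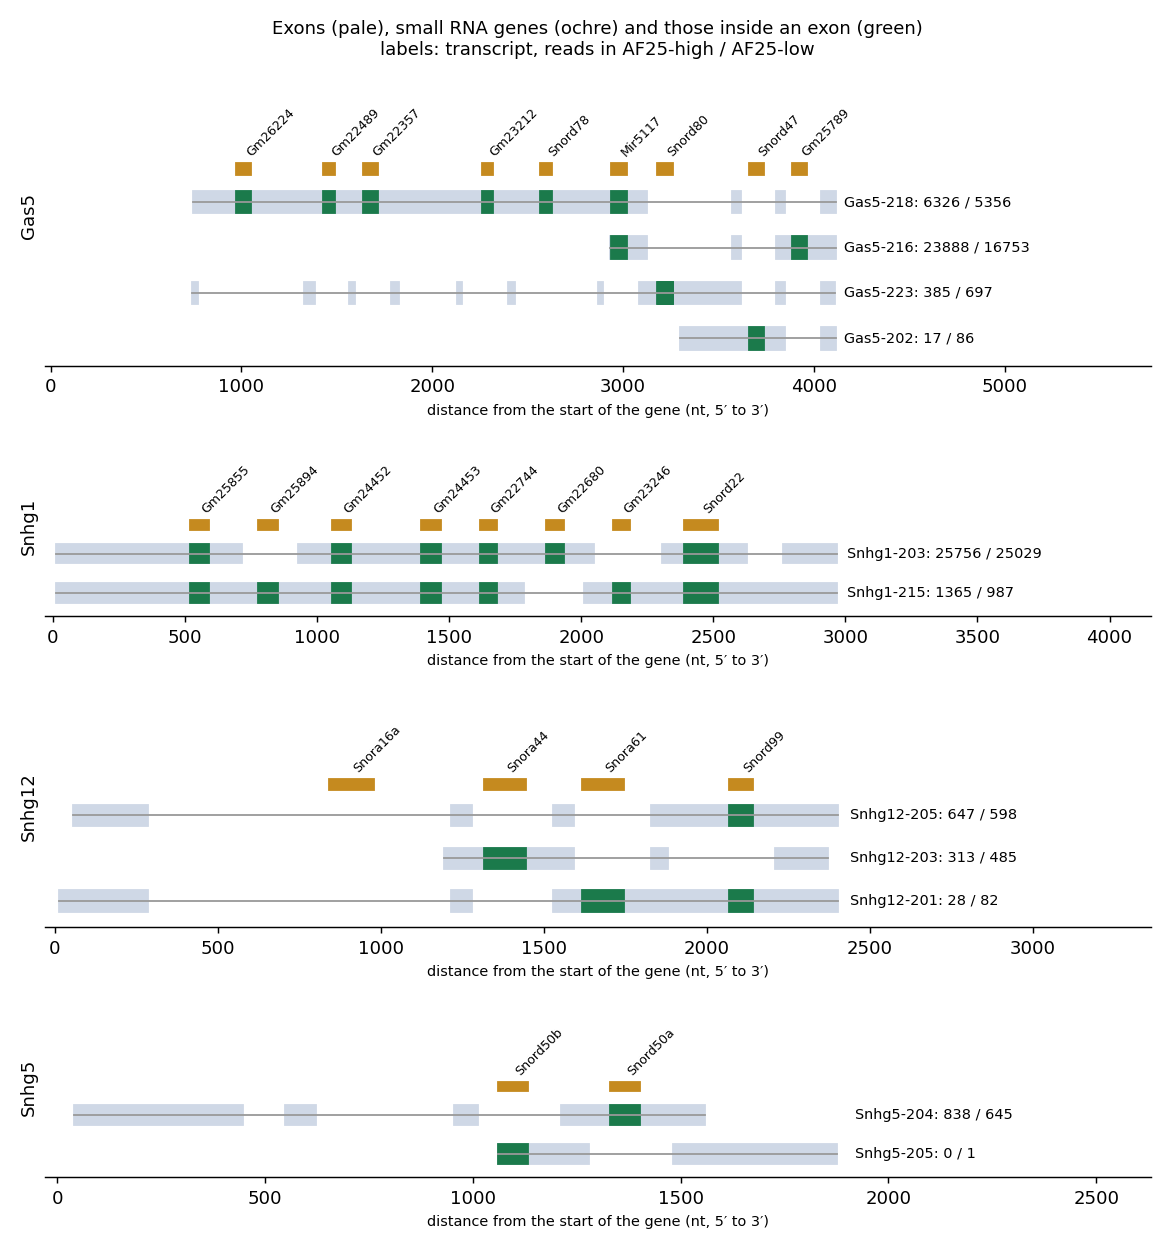
Maps of Gas5, Snhg1, Snhg12 and Snhg5 show the exons of their main transcripts (pale boxes) and the small RNA genes (ochre), with those inside an exon in green, against the distance from the start of the gene in nt. The reads in AF25-high and AF25-low stand beside each transcript, and each of the 4 Gas5 transcripts encloses a different set of snoRNAs, with Mir5117 alone in more than 1 of them.

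Snhg1 was dominated by a single transcript. Snhg1-203, of 2348 nt, encloses Gm25855, Gm24452, Gm24453, Gm22744, Gm22680 and Snord22, the mouse U22 that in frog is needed for 18S rRNA processing. It had 25756 reads in AF25-high and 25029 reads in AF25-low, a ratio of 1.04 (1.02 to 1.06). This ratio was 0.900 by the deposited size factors, and it was 0.967 when the 3 tables were summed for the total. Snhg1-215, of 2728 nt, shares 5 of its 7 enclosed snoRNAs with Snhg1-203 and adds Gm25894 and Gm23246. It had 1365 and 987 reads, a ratio of 1.39 (1.28 to 1.52). Of the reads of these 2 transcripts, Snhg1-215 took 5.03% (4.78 to 5.30) in AF25-high and 3.79% (3.56 to 4.03) in AF25-low.

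Snhg12 split in a like manner. Snhg12-205, which encloses the C/D box snoRNA Snord99, had 647 reads in AF25-high and 598 reads in AF25-low, a ratio of 1.09 (0.975 to 1.22). Snhg12-203, which encloses the H/ACA box snoRNA Snora44, had 313 and 485 reads, a ratio of 0.651 (0.563 to 0.752). Snhg12-201, which encloses Snora61 as well as Snord99, had 28 and 82 reads, a ratio of 0.344 (0.216 to 0.535). Of these 3 transcripts, those with an H/ACA snoRNA in an exon were the lower ones in AF25-high, though Snhg12-201 encloses a C/D box snoRNA too. The H/ACA box snoRNA Snora16a of the same host, which has a row of its own, had a ratio of 1.75 (1.24 to 2.47). Rows with C/D box snoRNAs went both ways, as with Gas5-216 (1.44) and Gas5-223 (0.557). A link with box class was not tested. Of the reads of Snhg12-203 and Snhg12-205 together, Snhg12-203 held 32.6% (29.6 to 35.7) in AF25-high and 44.8% (41.8 to 47.8) in AF25-low. Snhg12-201 and Snhg12-205 carry another transcript version in GENCODE M21 than in the table, so that their exons may differ from those used here.

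Snhg5 was counted almost wholly on Snhg5-204, which encloses Snord50a and had 838 and 645 reads, a ratio of 1.31 (1.18 to 1.45). Snhg5-205, which encloses Snord50b, had 0 reads in AF25-high and 1 read in AF25-low. A read from any stretch without position 50 fits both snoRNAs printed above, and such reads went to the locus with the highest expression, so these counts do not separate Snord50a from Snord50b.

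The last 7 rows had between 8 and 162 reads. Snhg8-202, with Snora24, had 162 and 150 reads (1.09, 0.867 to 1.37). Snhg17-209, with Gm24411, had 43 and 27 reads (1.61, 0.970 to 2.70), and Snhg17-204, with Gm23925 and Gm26003, had 28 reads in each library. Snhg15-203, with Snora9, had 25 and 30 reads, a ratio of 0.840 (0.474 to 1.48). The intervals of these 4 held 1 by library totals. With the total of the Ensembl table as the scale, those of Snhg8-202 (1.22 to 1.93) and Snhg17-209 (1.37 to 3.81) lay above 1.

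The other 3 enclose no small RNA. Snhg15-201 had 41 and 31 reads (1.33, 0.816 to 2.20), and Snhg9-201 had 41 and 27 reads (1.53, 0.920 to 2.59). Snhg3-202 had 8 reads in AF25-high and 27 reads in AF25-low, a ratio of 0.299 (0.117 to 0.676). The second Snhg3 transcript, Snhg3-204, had 8 and 5 reads, so that the lower sum of Snhg3 in AF25-high rested on Snhg3-202 (without it the ratio was 1.61, 0.465 to 6.27).

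**Figure D4:**
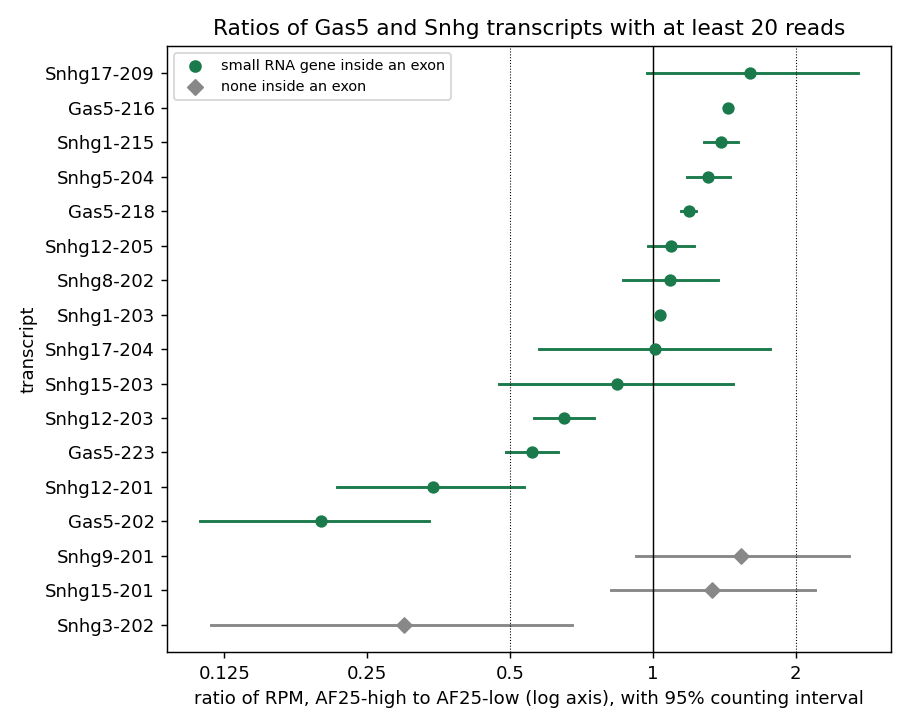
Ratios of RPM, AF25-high over AF25-low, are drawn on a log axis with its 95% counting interval for the 17 transcripts with at least 20 reads, as circles where a small RNA gene lies inside an exon and as diamonds where none does. Dotted lines mark 2-fold differences, and Gas5-202 (0.199), Snhg3-202 (0.299) and Snhg12-201 (0.344) lie beyond the lower one.

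Nearly every host read was counted on a transcript that encloses a small RNA gene. The 19 rows of this kind had 59840 reads in AF25-high and 50962 reads in AF25-low, 99.8% and 99.7% of the reads of the hosts. The 15 rows with none had 149 and 129 reads, a ratio of 1.16 (0.914 to 1.49). The 15 retained-intron rows of the hosts held 96.7% and 95.4% of the reads on all 67 retained-intron rows of the table. The other 52 rows of this class had 1993 and 2389 reads, a ratio of 0.841 (0.792 to 0.893). Where reads lie along a transcript was not analysed here, so reads of the snoRNA and of the host RNA cannot be told apart in these rows.

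None of the 28 small RNA genes inside an exon of a listed host transcript had a row of its own in the table. Of the 9 that are not inside one, 7 had a row. Those without a row were Mir3069, which lies within Scarna13, and the shorter gene model of Snora16a. Each of them thus overlaps a gene that had a row. Each listed transcript had reads, and a read was counted at 1 locus, so these groups are partly set by the counting itself. In the rest of the annotation, 0 of 14 snoRNA and scaRNA genes inside an exon of a listed transcript had a row, and 202 of 1508 (13.4%) of those outside had a row, a share at which 14 genes say little. In 4 Gas5 rows (Gas5-206, Gas5-211, Gas5-219 and Gas5-225) each enclosed snoRNA lies in another row with more reads, and these 4 rows had 1 to 18 reads over both libraries. Sharing was counted by gene. Snhg1-215 had 2352 reads over both libraries with 5 of its 7 snoRNAs shared. Snhg5-205 had 1 read with no snoRNA gene shared. Its Snord50b differs at position 50 alone from Snord50a, which lies in Snhg5-204 (1483 reads over both libraries), so most of its sequence is shared. Reads that matched several loci had been assigned to the most highly expressed of them. The part of this rule in these counts and in the differences between transcripts was not tested.

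The small RNAs with a row of their own could be set beside their hosts. Their 7 rows summed to 853 reads in AF25-high and 1100 reads in AF25-low, a ratio of 0.782 (0.714 to 0.856). Snord123, a C/D box snoRNA within Snhg18, had 526 and 729 reads, a ratio of 0.728 (0.649 to 0.815), and without it the ratio of the other 6 was 0.889 (0.764 to 1.03). The row of Snhg18 had 7 and 3 reads. Per kilobase, the level of Snord123 was 257 and 353 RPM and that of the spliced Snhg18 was 0.163 and 0.0694 RPM. Because small RNA sequencing reads short RNA, these values do not compare the abundance of a 71 nt snoRNA with that of a 1486 nt RNA.

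Scarna13 within Snhg10 is a scaRNA, the kind that acts in Cajal bodies on spliceosomal RNAs. It had 81 and 151 reads, a ratio of 0.541 (0.408 to 0.713), against 3 and 6 reads of its host. The microRNA gene Mir3069 lies wholly within Scarna13 on the same strand and has no row. Reads of the scaRNA and of the microRNA therefore cannot be told apart in this row. Snora78 within Snhg9 had 36 and 67 reads, a ratio of 0.542 (0.351 to 0.824), whereas the row of Snhg9 had 41 and 27 reads. Snora16a within Snhg12 had 97 and 56 reads, a ratio of 1.75 (1.24 to 2.47), whereas the rows of Snhg12 had 988 and 1165 reads. The interval of Snhg9 held 1 by library totals, and Snhg12 was above 1 (1.20) with the total of the Ensembl table as the scale. Opposite directions of snoRNA and host therefore cannot be read from these values. The balance within a library does not depend on the scaling. Snora78 had 36 reads beside 41 of Snhg9 in AF25-high and 67 beside 27 in AF25-low. Snora16a had 97 beside 988 of Snhg12 in AF25-high and 56 beside 1165 in AF25-low. Neither shift was tested.

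Snord87 within Snhg6 had 107 and 89 reads, a ratio of 1.21 (0.907 to 1.62). Snora73b within Snhg3 had 5 and 8 reads, and Snora73a had 1 read and 0 reads, where a count of 0 allows up to 3 reads. Snora16a is annotated as 2 overlapping gene models, of which 1 has the row.

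**Figure D5:**
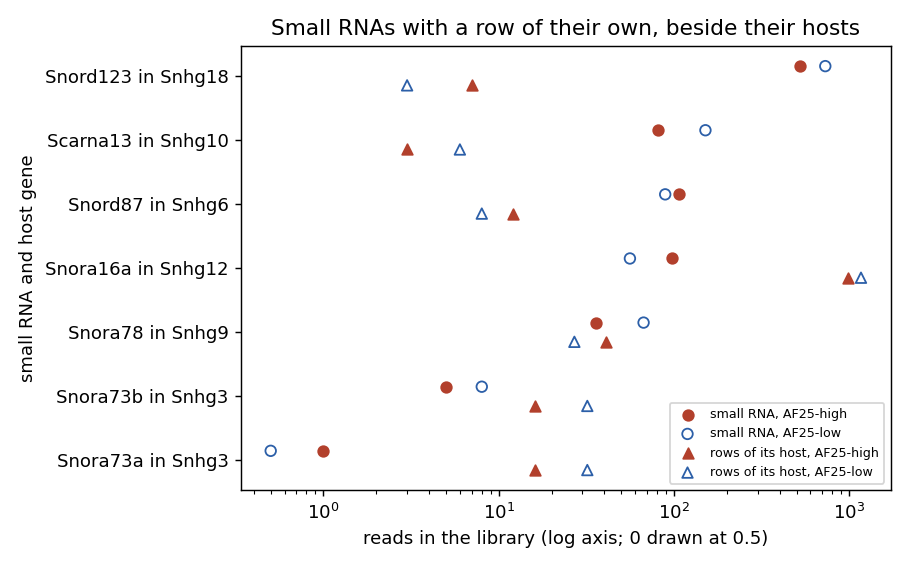
Reads of the 7 small RNAs that have a row of their own (circles) and the summed reads of their host's rows (triangles) are drawn on a log axis, filled for AF25-high and open for AF25-low, with 0 drawn at 0.5. The 2 snoRNAs of Snhg3 are set against the same host, and Snord123 has 526 and 729 reads where the row of Snhg18 has 7 and 3.

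Other sets in the same table give the scale of these ratios. The 193 other snoRNA rows, which leave out the snoRNAs of the hosts but include 5 rows with identifiers not in the annotation used, had a ratio of 0.916 (0.907 to 0.926) and a median log2 ratio of -0.027 over the 132 rows with at least 20 reads. The 518 other lincRNA rows had a ratio of 0.835 and a median of 0.17 over 80 rows. Other noncoding snoRNA hosts (8 rows of 5 genes) had 739 and 993 reads, a ratio of 0.751 (0.681 to 0.826). Among them, Rian of the Dlk1-Dio3 locus had the most reads, 394 and 564 (0.705, 0.618 to 0.803). It encloses AF357425, the target of both oligonucleotides, so it is not apart from the treatment. Its rows differed in direction, with 357 and 550 reads for Rian-201 (0.655, 0.571 to 0.749) and 37 and 14 reads for Rian-209 (2.67, 1.41 to 5.34). Zfas1 had 263 and 354 reads (0.749, 0.636 to 0.881) and Dancr had 44 and 55 reads (0.807, 0.530 to 1.22). The other 2 genes were not lower, with 25 and 8 reads for 1810026B05Rik (3.15, 1.38 to 8.08) and 13 and 12 reads for Epb41l4aos (1.09, 0.460 to 2.62). With the total of the Ensembl table as the scale the ratio of this set was 1.06 (0.959 to 1.16).

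Abundant noncoding RNAs chosen for having no snoRNA (13 rows, of which those of Meg3 enclose the microRNA genes Mir770 and Mir1906-1) had 648 and 621 reads, a ratio of 1.05 (0.941 to 1.18). Neat1, the scaffold RNA of paraspeckles, had 287 and 245 reads (1.18, 0.993 to 1.41), Malat1 of nuclear speckles had 269 and 318 reads (0.853, 0.723 to 1.01), and Kcnq1ot1 had 40 and 28 reads (1.44, 0.867 to 2.43). Pvt1 was higher in AF25-high, with 24 and 9 reads (2.69, 1.21 to 6.57). The intervals of Meg3 and Ftx held 1, and Xist and H19, also on the list, had no row. No test set the hosts against these sets, since each condition has 1 library.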

How the data were processed

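Small RNA of mouse ear fibroblasts was sequenced in 2 libraries (AF25-high and AF25-low, 1 each). The authors used the DNBseq platform and aligned reads to GRCm38 and RNA databases in sRNAbench (Bowtie aligner; versions not given in the sources used here). Reads were counted on the sense strand, and a read with several matching loci was assigned to that with the highest expression. The deposited signal values are counts that the authors divided by a size factor per table and library. The tables also hold the fold changes, p-values and adjusted p-values of the authors' comparison, which were not used.

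Each column was divided by its smallest value above 0, which gave whole reads for 100% of the values (relative tolerance 1e-06). RPM used library totals of 28856715 (AF25-high) and 29103700 reads (AF25-low), estimated as the median of tRNA reads over the RPM per anticodon given by the study, for 38 anticodons with at least 100 RPM, and not stated as such by it. At this median, 12 and 13 anticodons lay within 1%. An error in the totals would shift all ratios alike. Names, exons and sequences came from GENCODE M21 (GRCm38), which matched 1571 of 1596 identifiers and the transcript version of 32 of the 34 member rows. A small RNA gene counted as enclosed when it lay wholly inside an exon on the same strand.

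No test was run. Counts and medians took rows with 20 or more reads in the higher library, with 0.5 read added on the log2 scale and 2-fold as the size rule. Every Gas5 or Snhg gene is named, every transcript with at least 20 reads, the 3 small RNAs with the most reads per host and the 3 members with the most reads of each comparison list. Other rows and genes are named because a count or set refers to them and were chosen after their values were seen. Members and lists were chosen with earlier results of these data known. Alternatives were 3 other scalings, other minimums and pseudocounts, and sums without leading rows or without rows that enclose a small RNA. The sum without Gas5 and Snhg1 was added after seeing the data. The steps were tested on simulated data. Calculations ran in Python 3.11.15 (scipy 1.17.1, pandas 2.3.3, numpy 2.4.6) and figures in matplotlib 3.10.9.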

Additional observations from a re-analysis of the deposited data

How the results depend on the processing

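The scaling moved all ratios. The median log2 ratio of all rows with at least 20 reads was 0.057 by library totals, -0.15 by the deposited size factors, 0.55 by the total of the Ensembl table and -0.045 by the total of the 3 tables, and the members' median of 0.12 became -0.082, 0.62 and 0.021 in the last 3. With these scalings in the same order, the sum of all hosts (1.18) was 1.03, 1.67 and 1.10. The size factors gave 0.679 for the small RNAs with a row of their own and 0.651 for the other snoRNA hosts. The Ensembl total gave 1.10 and 1.06 for these sets, and it also brought Snhg12 (1.20) and Snord123 (1.02) above 1. The intervals of the other snoRNA hosts (0.959 to 1.16) and of Snord123 (0.914 to 1.15) then held 1. Those of the small RNAs (1.01 to 1.21) and of Snhg12 (1.11 to 1.31) lay above 1. Snhg1 reversed to 0.912 and Snhg1-203 to 0.900 by the size factors, and to 0.980 and 0.967 by the total of the 3 tables. With the Ensembl total 6 members in place of 3 were at least 2-fold apart, 3 higher and 3 lower, beside 30.7% higher and 4.82% lower among all rows, and 9 genes in place of 4 had an interval above 1, beside 29.0% of all genes.

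With other rows left out, the sum of all hosts was 1.32 without Snhg1-203, 1.05 without Gas5, 1.04 without Gas5 and Snhg1, and 1.16 without rows that enclose a small RNA. Without the leading row of each gene 2 genes had an interval above 1, and Snhg3 moved to 1.61, with an interval that held 1. Without rows that enclose a small RNA 1 gene had an interval above 1. Gas5 then moved to 0.336, from 1 read against 3, with an interval that held 1. The small RNAs without Snord123 gave 0.889. The members' median was 0.25 with a minimum of 10 reads and 0.27 with none. Causes of these shifts other than the change of scale or of rows were not tested. No paired analysis was possible because each condition has 1 library, and for the same reason no library could be left out. Depth limits the 9 hosts with under 200 reads.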
